A study of Mus musculus with 9 samples.

Results

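In the livers of mice on a high-fat diet (HFD), 83 genes stood apart from both the control livers and the livers of mice that ate the same diet and also received the gut bacterium Papillibacter cinnamivorans (HFD+Pc). They were chosen by their values. A gene belonged if its mean over the 9 libraries was at least 1 FPKM (fragments per kilobase of transcript, scaled to the size of the library), if all 3 HFD values lay above, or below, all 3 HFD+Pc and all 3 control values, and if the HFD mean plus 1 differed at least 1.3-fold from both other means plus 1. The rule took 38 genes that were higher and 45 that were lower in HFD livers, out of 10523 rows with a mean of at least 1 FPKM and 54007 rows in all. Every difference between HFD livers and either other group below is therefore a description of what was selected, with no test.

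The HFD+Pc group were C57BL/6 mice on the high-fat diet gavaged with Papillibacter cinnamivorans, the HFD group C57BL/6 mice on the same diet, and the control group C57BL/6 mice labelled only as control. Each group had 3 liver libraries (HFD+Pc replicates 1, 3 and 4; HFD replicates 1, 2 and 3; control replicates 1, 2 and 4), given below in that order, all from postnatal day 98. The labels do not say whether the HFD and control mice were gavaged with a vehicle, nor how many mice went into a library, so p-values measure the spread between libraries. Liver tissue is mostly hepatocytes, which make albumin, bile acids and plasma proteins, beside resident macrophages (Kupffer cells), sinusoidal endothelial cells and passing blood cells. A fatty diet is known to load hepatocytes with lipid droplets and to draw immune cells into the tissue, and endothelial cells send hepatocytes the bone morphogenetic proteins that set hepcidin, the hormone of iron balance.

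The libraries held 16553627 to 18920920 recovered reads, so 3 reads on a transcript of 1 kb corresponded to 0.160 to 0.179 FPKM. The first principal component (39.6% of the variance) placed HFD libraries between HFD+Pc and control libraries. The second (15.2%) set HFD replicates 1 and 2, at 17.6 and 18.9, apart from HFD+Pc libraries at -10.8 to -7.00 and control libraries at -4.83 to -3.62, and HFD replicate 3, at 3.94, lay between. Without HFD replicate 3 the rule took 86 higher and 105 lower genes, among them 37 of the 38 and 38 of the 45. The divisor behind the deposited FPKM was 101.6% to 108.5% of the recovered reads in HFD libraries, against 97.5% to 100.8% in the others, and no source used here explains it.

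Genes set apart in HFD livers were fewer than genes set apart in the other groups. Among the 10523 rows, HFD values lay above both other groups without overlap in 1.71% and below them in 2.36%, and with the 1.3-fold bound the shares were 0.361% and 0.428%. The same full rule with HFD+Pc as the group apart took 96 genes above (0.912%) and 240 below (2.28%). With control apart it took 455 above (4.32%) and 385 below (3.66%). Both differences of a member rest on the same 3 HFD libraries, so values that are high or low there by chance look like a diet change that the bacterium reversed. If the 9 values of a gene came in random order, a given group of 3 would be lowest in 1 of 84 orders, or 1.19%. The split moved under 2 of the 3 other scalings run. Rescaled by the median ratio of genes to their mean over libraries, the rule took 41 higher and 45 lower genes, the same 45 among them. Rescaled to TPM (transcripts scaled to a common sum) it took 56 higher and 27 lower genes, and scaled by plain recovered read totals 66 and 23, with 22 of the 45 lower genes lost. Across all 10988 genes tested, limma (linear models with a shared estimate of the spread) called 0.182% higher and 0.446% lower in HFD+Pc against HFD livers, 4.61% higher and 5.35% lower in HFD against control livers, and 11.1% higher and 11.9% lower in HFD+Pc against control livers (adjusted p under 0.05).

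**Figure D1:**
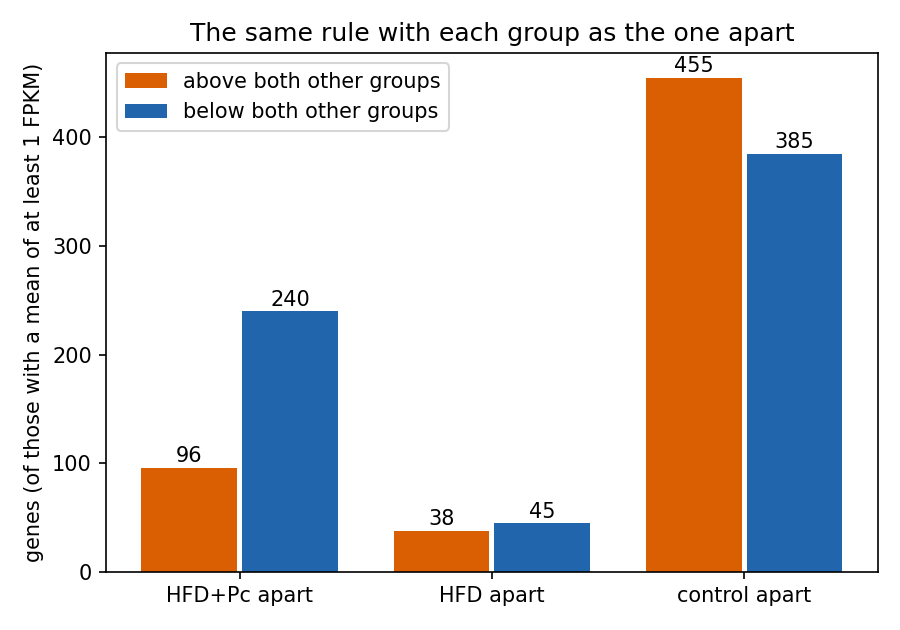
Bars give the number of genes, of those with a mean of at least 1 FPKM, that meet the same rule when HFD+Pc, HFD or control is the group set apart, above (orange) or below (blue) both others. The HFD bars, 38 and 45, are the shortest of the 3 pairs.

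**Figure D2:**
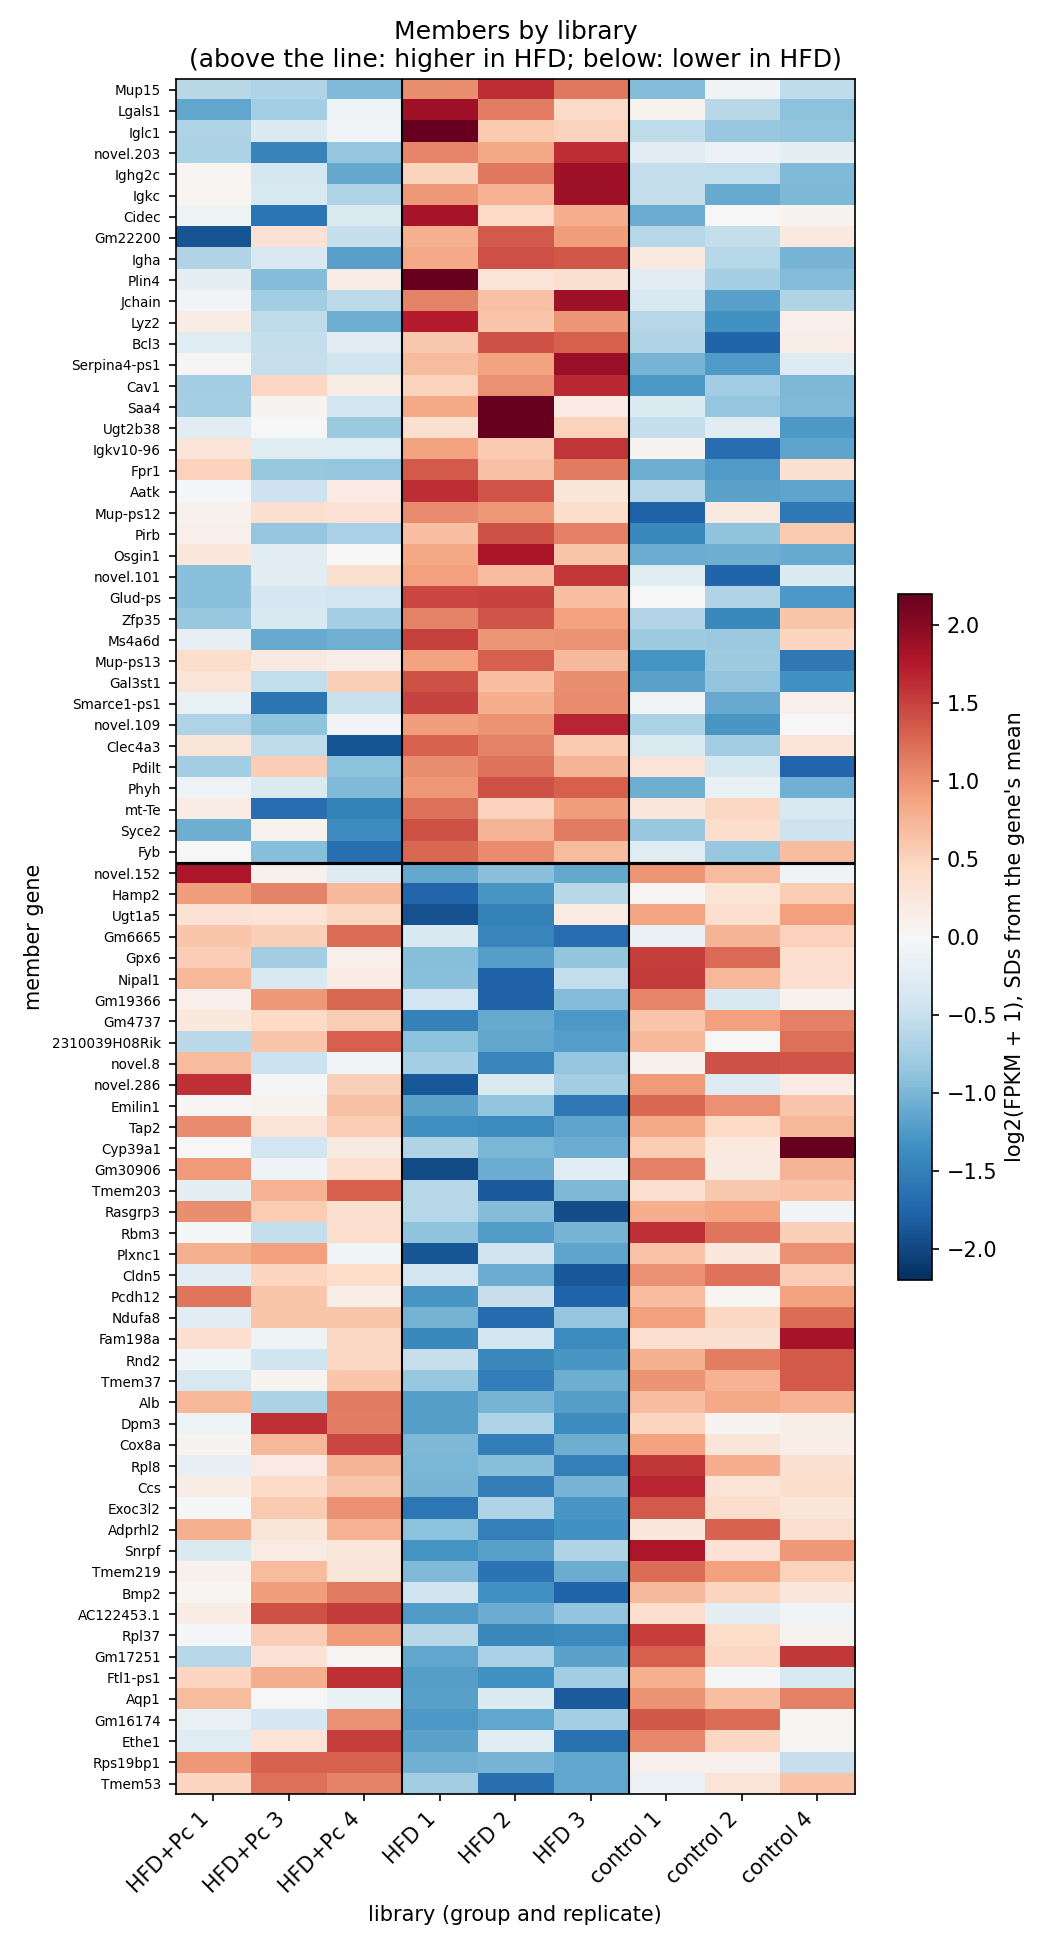
Each row is 1 of 81 of the 83 genes and each column 1 library (HFD+Pc, HFD, control). Colour is log2(FPKM + 1) in standard deviations from the gene's own mean over the 9 libraries, and the 37 genes above the line are red, the 44 below it blue, in the 3 HFD columns because the rule chose them so; Ugt1a5 in HFD replicate 3 is the exception.

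Immunoglobulin genes and Jchain, products of plasma cells, made up 6 of the 38 higher genes. Igkc, the constant region of the kappa light chain, had 29.8, 24.8 and 21 FPKM in HFD+Pc livers, 46.3, 42.2 and 71.8 FPKM in HFD livers and 22.6, 16.9 and 17.9 FPKM in control livers. HFD replicate 3 was the highest library, and HFD+Pc and control livers overlapped. Jchain, which joins IgA and IgM into polymers and marks plasma cells, had 1.75, 1.19 and 1.32 FPKM in HFD+Pc livers, 3.01, 2.45 and 4.16 FPKM in HFD livers and 1.51, 0.889 and 1.25 FPKM in control livers. Again HFD replicate 3 was highest. Igha, the heavy chain of IgA, had 2.96, 3.47 and 2.26 FPKM in HFD+Pc livers, 5.8, 7.42 and 7.29 FPKM in HFD livers and 4.45, 3.0 and 2.47 FPKM in control livers. The heavy chain gene Ighg2c had 3.84, 3.01 and 1.92 FPKM in HFD+Pc livers, 4.89, 6.94 and 9.78 FPKM in HFD livers and 2.78, 2.75 and 2.13 FPKM in control livers, and the lowest HFD library lay nearer to HFD+Pc livers than to the highest HFD library. The light chain gene Iglc1 had 0.504, 0.788 and 1.04 FPKM in HFD+Pc livers, 5.4, 1.8 and 1.7 FPKM in HFD livers and 0.589, 0.389 and 0.365 FPKM in control livers. Its HFD replicate 1 stood far above replicates 2 and 3, and without that replicate the gene did not meet the rule. The variable segment Igkv10-96 had a mean of 1.36 FPKM in HFD+Pc livers, 2.83 FPKM in HFD livers and 0.705 FPKM in control livers. Of all 10523 rows 0.152% were immunoglobulin genes, against 5 of the 38 (13.2%) by their annotated type.

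Immunoglobulin RNA comes from B and plasma cells, whose marker list held 10 genes. All 7 tested markers had their highest mean in HFD livers, but for the 3 members among them, Igkc, Jchain and Igha, the rule fixed this. Only 5 of the 10 markers had a mean of at least 1 FPKM. The test filter can be met through the 3 HFD libraries alone, so nothing is read from the count. The summed level was 32 to 45.9 FPKM in HFD+Pc livers, 61.9 to 95.1 FPKM in HFD livers and 28 to 42.1 FPKM in control livers, most of it Igkc. Ighm, the heavy chain of IgM and not a member, had 5.94, 6.26 and 4.99 FPKM in HFD+Pc livers, 9.62, 4.2 and 9.27 FPKM in HFD livers and 9.3, 3.99 and 6.48 FPKM in control livers, with overlapping groups. The B cell marker Ms4a1 averaged under 1 FPKM in each group, and Mzb1 was listed at 0 in all control livers. In whole tissue, fewer cells of a type and less RNA per cell cannot be told apart, and the part of cell numbers in these values was not tested.

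Of 15 tested genes in the Kupffer cell and macrophage list, 1 was a member, Lyz2, and the other myeloid genes described here were picked after their values were seen. Lyz2, the lysozyme of macrophages and neutrophils, had 70.7, 55.9 and 47.2 FPKM in HFD+Pc livers, 119, 82.2 and 92.2 FPKM in HFD livers and 54.6, 43.2 and 69.6 FPKM in control livers. HFD+Pc and control livers overlapped, and all 3 HFD livers lay above both. Fpr1, a receptor for formylated bacterial peptides, had 4.92, 2.84 and 2.82 FPKM in HFD+Pc livers, 6.79, 5.19 and 6.29 FPKM in HFD livers and 2.54, 2.36 and 4.59 FPKM in control livers. Ms4a6d, a membrane protein of macrophages, had 1.85, 1.34 and 1.37 FPKM in HFD+Pc livers, 3.05, 2.62 and 2.64 FPKM in HFD livers and 1.51, 1.49 and 2.26 FPKM in control livers. For Fpr1 the highest HFD+Pc library lay just under the lowest HFD library, and for Ms4a6d control replicate 4 came nearest. Pirb, an inhibitory receptor of myeloid and B cells, averaged 1.05 FPKM in HFD+Pc livers, 2.06 FPKM in HFD livers and 1.04 FPKM in control livers. Clec4a3, a C-type lectin receptor, averaged 2.58 FPKM in HFD+Pc livers, 4.19 FPKM in HFD livers and 2.92 FPKM in control livers, and Fyb, an adaptor protein of T cells and myeloid cells, averaged 1.38 FPKM in HFD+Pc livers, 2.72 FPKM in HFD livers and 1.84 FPKM in control livers. Fyb was the gene nearest to the threshold on the higher side, with a smaller fold of 1.308, beside Syce2 (a protein of meiotic chromosome pairing) at 1.31; just outside were Ccn1 at 1.296 and Gm4032 at 1.28. Clec4a3, Fyb and Syce2 each left the set when 1 of 3 different libraries was left out.

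In the Kupffer cell and macrophage list 7 of the 15 tested genes had their highest mean in HFD livers and 0 their lowest there. The median limma difference HFD minus control was -0.01 on the log2 scale, with 1 gene higher, the member Lyz2, and 0 lower. For HFD+Pc minus HFD the median was -0.40, with 0 higher and 0 lower. For HFD+Pc minus control the median was -0.41, with 0 higher and 3 lower. The summed levels were 359.6 to 571 FPKM in HFD+Pc livers, 507 to 675 FPKM in HFD livers and 516 to 717 FPKM in control livers, which overlap. Clec4f, a marker of Kupffer cells, averaged 70.9 FPKM in HFD+Pc livers, 82.1 FPKM in HFD livers and 78.6 FPKM in control livers. The neutrophil markers S100a8 and S100a9 had their highest means in HFD livers but overlapped between groups; S100a9 had 2.52, 2.86 and 2.04 FPKM in HFD+Pc livers, 6.06, 2.23 and 7.75 FPKM in HFD livers and 4.51, 1.35 and 2.44 FPKM in control livers. Ly6g, Cxcr2, Mpo and Elane were below 1 FPKM in every library.

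The 300-base promoter windows of Jchain and Lyz2, 250 bases before to 50 after the RefSeq start, are shown as a plasma cell and a myeloid example. Windows on GRCm38.p6 were found for 20 of the 38 higher and 28 of the 45 lower genes. Both strands were searched for the TATA box motif TATAAA, the CCAAT box CCAAT, the GC box GGGCGG, the nuclear receptor half-site AGGTCA, the HNF1 half-site GTTAAT, the E-box CACGTG, the ETS motif GAGGAA and the octamer ATTTGCAT. Capitals mark matches. Jchain (chr5:88527848-88528147, minus strand) holds AGGTCA at its far end, and Lyz2 (chr10:117282223-117282522, minus strand) holds none of these letters in the window.
Jchain: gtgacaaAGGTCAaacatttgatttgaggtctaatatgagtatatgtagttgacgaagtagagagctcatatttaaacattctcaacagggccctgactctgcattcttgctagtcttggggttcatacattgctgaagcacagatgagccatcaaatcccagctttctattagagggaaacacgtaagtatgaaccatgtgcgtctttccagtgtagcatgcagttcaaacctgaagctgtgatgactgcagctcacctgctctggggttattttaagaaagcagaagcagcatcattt
Lyz2: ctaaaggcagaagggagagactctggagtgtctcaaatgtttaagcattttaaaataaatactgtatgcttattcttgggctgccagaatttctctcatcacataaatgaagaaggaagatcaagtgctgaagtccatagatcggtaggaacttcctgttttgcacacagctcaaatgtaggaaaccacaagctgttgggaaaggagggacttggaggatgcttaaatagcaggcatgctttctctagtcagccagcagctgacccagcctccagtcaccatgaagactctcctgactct
The half-site AGGTCA was in 6 of 20 windows of higher genes (30%), in 2 of 28 of lower genes (7.14%), in 12.8% of the 7727 windows of genes with a mean of at least 1 FPKM and in 16.0% of all 27025 windows. GGGCGG was in 5 of 20 (25%) and 17 of 28 (60.7%), against 64.5% and 35.9%. These are counts of letters, not of binding sites.

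Of 24 tested genes for triglyceride synthesis and lipid droplets, 2 were members, Cidec and Plin4, both on the higher side. Cidec, which fuses lipid droplets in adipocytes and fatty hepatocytes, had 3.7, 1.38 and 3.25 FPKM in HFD+Pc livers, 10.04, 4.96 and 6.02 FPKM in HFD livers and 2.02, 3.93 and 4.05 FPKM in control livers. Plin4, a perilipin that coats nascent droplets, had 1.0, 0.498 and 1.31 FPKM in HFD+Pc livers, 4.29, 1.42 and 1.47 FPKM in HFD livers and 0.985, 0.639 and 0.505 FPKM in control livers. In both genes HFD replicate 1 was far above replicates 2 and 3, and without it Plin4 no longer met the rule. Cav1, the caveolin of endothelial cells and adipocytes, had 1.35, 3.12 and 2.6 FPKM in HFD+Pc livers, 3.2, 4.26 and 6.1 FPKM in HFD livers and 0.869, 1.35 and 1.12 FPKM in control livers, with its highest value in HFD replicate 3. Cav1 was in none of the lists. Over the 24 lipid genes, 2 were higher and 4 lower in the HFD against control test with a median log2 difference of -0.04, 0 were higher or lower in HFD+Pc against HFD, and 5 had their highest mean in HFD livers. Plin2, the main droplet protein of hepatocytes, averaged 250.5 FPKM in HFD+Pc livers, 216 FPKM in HFD livers and 189.9 FPKM in control livers.

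Of the 10 adipocyte markers 5 were tested, and 3 of these, the member Plin4 included, had their highest mean in HFD livers and 0 their lowest. For Plin4 the rule fixed this. The test filter can be met through the 3 HFD libraries alone, so nothing is read from the count. Adipoq, Cfd, Retn and Plin1, picked from the list after their values were seen, had their highest value in HFD replicate 1. Adipoq, the adipocyte hormone adiponectin, was listed at 0 in every HFD+Pc and control library and at 1.54, 0 and 0.129 FPKM in HFD replicates 1, 2 and 3. Cfd, the adipocyte serine protease adipsin, had 5.95, 2.33 and 5.2 FPKM in HFD+Pc livers, 21.8, 9.92 and 5.23 FPKM in HFD livers and 0.116, 0.128 and 0 FPKM in control livers. Retn and Plin1 were listed at 0 in all HFD+Pc and control libraries, and their highest values, 0.621 and 0.164 FPKM, were in HFD replicate 1. The summed level of the 10 adipocyte markers, most of it Car3, was 649 to 1025 FPKM in HFD+Pc livers, 680.0 to 1006 FPKM in HFD livers and 162 to 742 FPKM in control livers. Whether these transcripts have a part in the levels of Cidec and Plin4 was not tested; Cidec still met the rule without HFD replicate 1.

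Mup15, one of the lipocalins that mouse hepatocytes secrete and that pass into urine, was the member with the widest separation. It had 137, 128 and 83.7 FPKM in HFD+Pc livers, 1276, 2925 and 1562 FPKM in HFD livers and 85.4, 286 and 148 FPKM in control livers, and HFD livers were 16.4-fold above HFD+Pc livers and 11-fold above control livers on the FPKM + 1 scale. With the reads of its 16 near-identical copies added, the log2 ratios of -4.11 for HFD+Pc over HFD and 3.55 for HFD over control became -0.52 and 1.16. The annotated pseudogenes Mup-ps12 and Mup-ps13 went the same way, with means of 4.71 FPKM in HFD+Pc livers, 7.68 FPKM in HFD livers and 1.77 FPKM in control livers for Mup-ps12 and 27.2 FPKM in HFD+Pc livers, 37.3 FPKM in HFD livers and 14.5 FPKM in control livers for Mup-ps13. With copies added, the ratios of Mup-ps12 became -0.43 and 1.39, against -0.79 and 2.22 alone. Of the family's 19 tested genes, 7 were higher and 0 lower in HFD against control, and in HFD+Pc against HFD 1, Mup15, was lower. The rule chose Mup15 on these differences. Mup20 averaged 3264 FPKM in HFD+Pc livers, 3197 FPKM in HFD livers and 1716 FPKM in control livers, and Mup7 averaged 1995 FPKM in HFD+Pc livers, 4398 FPKM in HFD livers and 3295 FPKM in control livers.

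Galectin-1 (Lgals1), a lectin that binds galactosides and is made by stromal and immune cells, had 4.5, 5.81 and 8.52 FPKM in HFD+Pc livers, 26, 17.4 and 11.7 FPKM in HFD livers and 9.53, 6.32 and 5.27 FPKM in control livers. Bcl3, a partner of NF-kB p50 and p52 dimers, had 5.78, 5.18 and 5.79 FPKM in HFD+Pc livers, 8.15, 11.1 and 10.7 FPKM in HFD livers and 4.9, 3.02 and 6.79 FPKM in control livers. Saa4, the constitutive serum amyloid A of hepatocytes, had 76.2, 98.4 and 84 FPKM in HFD+Pc livers, 126, 195 and 102 FPKM in HFD livers and 87.8, 73.4 and 70.6 FPKM in control livers. In Lgals1 HFD replicate 1 was highest, in Saa4 HFD replicate 2, and Saa4 in HFD replicate 3 lay close to the highest HFD+Pc library. Serpina4-ps1, annotated as a pseudogene of the kallistatin inhibitor, averaged 4.44 FPKM in HFD+Pc livers, 8.02 FPKM in HFD livers and 3.57 FPKM in control livers. Osgin1, a gene induced by oxidative stress, had 67.4, 56.7 and 61.5 FPKM in HFD+Pc livers, 83.2, 116 and 76.3 FPKM in HFD livers and 41.6, 42.1 and 41.4 FPKM in control livers. Here the 3 groups did not overlap at all, with HFD+Pc livers between; without HFD replicate 2 the gene left the set. Phyh, the peroxisomal enzyme that starts the breakdown of phytanic acid, was among the most abundant higher genes, with means of 841 ± 60.6 FPKM in HFD+Pc livers, 1102 ± 42.6 FPKM in HFD livers and 803 ± 69.8 FPKM in control livers (SD, n = 3 each), and it left the set without HFD replicate 2 or HFD+Pc replicate 4. Saa4 was the member among 56 tested acute phase and complement genes, of which 2 were higher and 4 lower in HFD against control.

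Among the 45 lower genes, Hamp2, the second of the mouse hepcidin genes, ranked highest of those with a gene symbol by the smaller of its 2 ratios, but held only 1.42% of the reads it shares with a near-identical copy. It had 15.8, 17.7 and 13.6 FPKM in HFD+Pc livers, 1.78, 2.8 and 5.0 FPKM in HFD livers and 8.25, 9.99 and 12.1 FPKM in control livers, and all 3 HFD+Pc values were above all 3 control values. With the reads of the copy added, both directions turned round, but nearly all of the summed reads are those of the copy. The log2 ratio was -1.42 for HFD+Pc over HFD, against 2.24 alone. For HFD over control it was 0.47, against -1.60 alone. Bmp2, an endothelial ligand that induces hepcidin in hepatocytes, had 7.77, 9.23 and 9.64 FPKM in HFD+Pc livers, 7.04, 5.88 and 5.37 FPKM in HFD livers and 8.86, 8.44 and 8.07 FPKM in control livers. HFD livers were below the rest by a small margin, and the gene left the set under TPM or plain read totals, though not under median scaling, and without HFD replicate 3. The main hepcidin gene and copy of Hamp2, Hamp, had 311, 709 and 489 FPKM in HFD+Pc livers, 652, 805 and 2571 FPKM in HFD livers and 1384, 934 and 692 FPKM in control livers, with its highest value in HFD replicate 3 and overlapping groups. HFD replicates 1 and 2 lay below control replicates 1 and 2, so the summed ratio above 0 for HFD over control rests on HFD replicate 3. Of 21 tested genes of iron handling, 2 were lower in HFD against control (Hamp2 and Bmp2). In HFD+Pc against HFD 1, Hamp2, was higher, and both counts use reads of Hamp2 alone. The rule chose both genes on these differences, so nothing is read from the counts. Over all tested genes 5.35% were lower in HFD against control and 0.182% higher in HFD+Pc against HFD.

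Albumin (Alb), the most abundant plasma protein, had 38377, 28977 and 41658 FPKM in HFD+Pc livers, 26116, 27141 and 26086 FPKM in HFD livers and 38002, 39245 and 38695 FPKM in control livers. HFD livers lay close together, and HFD+Pc replicate 3 lay nearer to them than to the other HFD+Pc livers; with HFD+Pc replicate 4 left out the gene did not meet the rule. Among 16 hepatocyte markers 10 had their lowest mean in HFD livers and 2 their highest, and Alb was the only member. For Alb the rule fixed this. By limma 0 of the 16 were higher and 2 lower in HFD against control, and 0 were higher or lower in HFD+Pc against HFD. Summed levels were 52633 to 66838 FPKM in HFD+Pc livers, 46008 to 49874 FPKM in HFD livers and 64038 to 65626 FPKM in control livers, most of it Alb. Trf and Ttr were picked from the list after their values were seen. Transferrin (Trf) averaged 4483 FPKM in HFD+Pc livers, 3408 FPKM in HFD livers and 4433 FPKM in control livers. Transthyretin (Ttr) averaged 4012 FPKM in HFD+Pc livers, 3261 FPKM in HFD livers and 4198 FPKM in control livers.

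Several lower genes are known from endothelial cells or the vessel wall. Not all members of this kind were lower, as Cav1, the caveolin of endothelial cells and adipocytes given above, was higher. Cldn5, the tight junction claudin of endothelium, had 6.18, 7.58 and 7.44 FPKM in HFD+Pc livers, 5.85, 4.81 and 3.78 FPKM in HFD livers and 8.8, 9.27 and 7.73 FPKM in control livers. Aqp1, a water channel of endothelium and bile ducts, had 62, 53.1 and 51.5 FPKM in HFD+Pc livers, 40.7, 49.7 and 35.4 FPKM in HFD livers and 66.2, 61.4 and 67.8 FPKM in control livers. For Cldn5 all HFD+Pc livers lay between HFD and control livers, and for Aqp1 HFD+Pc replicate 1 overlapped the control livers. Pcdh12, an endothelial protocadherin, averaged 1.76 FPKM in HFD+Pc livers, 0.952 FPKM in HFD livers and 1.7 FPKM in control livers, and Emilin1, a protein of elastic fibres, averaged 3.85 FPKM in HFD+Pc livers, 2.3 FPKM in HFD livers and 4.84 FPKM in control livers. Plxnc1, a semaphorin receptor, averaged 5.2 FPKM in HFD+Pc livers, 3.46 FPKM in HFD livers and 5.3 FPKM in control livers, and Rasgrp3, an exchange factor for Ras in endothelium and B cells, averaged 2.16 FPKM in HFD+Pc livers, 1.21 FPKM in HFD livers and 2.09 FPKM in control livers. Cldn5 and Aqp1 left the set under TPM or plain read totals and without HFD replicate 3, Aqp1 also without HFD replicate 1 or HFD+Pc replicate 1, while Pcdh12, Emilin1, Plxnc1 and Rasgrp3 met the rule in each of these. These genes were grouped after their values were seen. Of 14 sinusoidal endothelial markers 0 were members, 9 had their lowest mean in HFD livers and 0 their highest. Summed levels of these markers were 141 to 148 FPKM in HFD+Pc livers, 121 to 149 FPKM in HFD livers and 165 to 186 FPKM in control livers, which overlap between HFD+Pc and HFD. Kdr, the receptor for vascular endothelial growth factor, was picked from the list after its values were seen. It had 9.47, 9.1 and 8.79 FPKM in HFD+Pc livers, 6.49, 8.64 and 5.93 FPKM in HFD livers and 10.7, 11.6 and 11.5 FPKM in control livers. HFD livers were again lowest, and HFD+Pc livers did not reach control livers.

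The windows of Alb (chr5:90460620-90460919, plus strand) and Cldn5 (chr16:18776597-18776896, plus strand), both GRCm38.p6, are shown as the hepatocyte and the endothelial example. Capitals mark CCAAT or its reverse complement ATTGG in both, GTTAAT in Alb, and CCGCCC, the reverse complement of GGGCGG, in Cldn5.
Alb: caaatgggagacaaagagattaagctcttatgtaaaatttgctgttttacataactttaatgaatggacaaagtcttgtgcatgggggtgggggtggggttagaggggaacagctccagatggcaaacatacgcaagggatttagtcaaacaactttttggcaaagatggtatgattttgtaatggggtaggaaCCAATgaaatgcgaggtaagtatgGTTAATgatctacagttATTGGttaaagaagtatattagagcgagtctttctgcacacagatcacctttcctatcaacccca
Cldn5: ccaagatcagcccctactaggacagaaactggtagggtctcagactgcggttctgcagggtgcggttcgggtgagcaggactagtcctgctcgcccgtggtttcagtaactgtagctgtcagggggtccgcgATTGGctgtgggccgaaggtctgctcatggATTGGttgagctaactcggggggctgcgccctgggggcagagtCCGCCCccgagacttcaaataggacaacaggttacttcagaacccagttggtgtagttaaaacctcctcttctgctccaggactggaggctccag
CCAAT was in 13 of 28 windows of lower genes (46.4%) and 7 of 20 of higher genes (35%), against 39.1% of windows of genes with a mean of at least 1 FPKM and 37.9% of all windows. GTTAAT was in 2 of 28 and 0 of 20, against 4.44% and 7.20%. The TATA box was in 2 of 20 and 2 of 28 windows of higher and lower genes, the E-box in 0 and 2, the ETS motif in 5 and 8, and the octamer in 1 and 0, against 7.44%, 10.6%, 26.1% and 1.29% of windows of genes with a mean of at least 1 FPKM.

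Described next are 4 of the lower genes that encode metabolic enzymes or a transporter, picked after their values were seen. Of 23 tested genes of bile acid synthesis and transport 0 were members. Cyp39a1, an oxysterol hydroxylase of bile acid synthesis, had 9.29, 7.6 and 10.2 FPKM in HFD+Pc livers, 6.8, 5.76 and 5.51 FPKM in HFD livers and 11.9, 10.3 and 24.8 FPKM in control livers. Control replicate 4 was far above the others, and HFD+Pc livers made up 31.1% of the gap between the HFD and control means, the smallest share of any of the 83. Ugt1a5, a glucuronosyltransferase, had 21.5, 21.3 and 23.9 FPKM in HFD+Pc livers, 3.49, 5.16 and 19.4 FPKM in HFD livers and 32.7, 22.6 and 33.7 FPKM in control livers, and its HFD replicate 3 lay just below the lowest HFD+Pc library; with its copies added its log2 ratios fell short of 1.3-fold in both comparisons. Nipal1, a magnesium transporter, had 3.79, 2.06 and 2.79 FPKM in HFD+Pc livers, 1.4, 0.676 and 1.8 FPKM in HFD livers and 5.7, 3.78 and 3.1 FPKM in control livers. Gpx6, a glutathione peroxidase, had 2.55, 0.785 and 1.82 FPKM in HFD+Pc livers, 0.637, 0.426 and 0.696 FPKM in HFD livers and 4.89, 4.13 and 2.22 FPKM in control livers. In Gpx6 the lowest HFD+Pc library nearly met the highest HFD library. Among 53 tested genes of xenobiotic metabolism the members were Ugt1a5 and, on the higher side, Ugt2b38, which left the set without HFD replicate 2; 8 were higher and 4 lower in HFD against control, and in HFD+Pc against HFD 0 were higher and 1 lower.

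Tap2, a subunit of the transporter that carries peptides to MHC class I molecules, was separated with little spread. It had 4.39, 3.66 and 3.91 FPKM in HFD+Pc livers, 2.39, 2.36 and 2.52 FPKM in HFD livers and 4.17, 3.8 and 4.08 FPKM in control livers. The spread within each group was small beside the gap, and HFD+Pc and control livers overlapped fully. Its partner Tap1 averaged 5.7 FPKM in HFD+Pc livers, 5.91 FPKM in HFD livers and 7.59 FPKM in control livers and was no member. Of 25 tested genes of MHC presentation, 0 were higher and 6 lower in HFD against control, and 1, Tap2, was higher in HFD+Pc against HFD. The rule chose Tap2 on these differences.

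Single genes of the respiratory chain and the ribosome were lower. Ndufa8, a subunit of complex I, had 52.8, 63.5 and 63.4 FPKM in HFD+Pc livers, 44.4, 38.5 and 46.1 FPKM in HFD livers and 67.7, 61.3 and 72.7 FPKM in control livers. Cox8a, a subunit of cytochrome c oxidase, averaged 258 FPKM in HFD+Pc livers, 179 FPKM in HFD livers and 243 FPKM in control livers. Of 79 tested nuclear genes of the respiratory chain they were the only members; 13 were lower in HFD against control, and in HFD+Pc against HFD 1 was higher and 3 lower. The ribosomal protein genes Rpl8 and Rpl37 were among the members. Rpl8 had 132, 143 and 161 FPKM in HFD+Pc livers, 111, 112 and 99.7 FPKM in HFD livers and 191, 162 and 147 FPKM in control livers. Of 80 tested cytosolic ribosomal protein genes, 36 had their lowest mean in HFD livers, 7 were lower in HFD against control, and in HFD+Pc against HFD 1 was higher and 3 were lower. Rpl8, Rpl37 and Cox8a left the set under plain read totals, Rpl8 also without HFD replicate 3 or HFD+Pc replicate 4, Rpl37 without 1 of 3 libraries and Cox8a without control replicate 1. Other lower genes were Ccs (the copper chaperone of superoxide dismutase), Ethe1 (a mitochondrial enzyme of sulfide breakdown), Dpm3 (a part of dolichol phosphate mannose synthase) and Rbm3 (a cold-inducible RNA-binding protein). Their HFD means were 0.484 (Rbm3) to 0.766 (Ethe1) of the control means on the FPKM + 1 scale. On the lower side the genes just inside the threshold were Tmem53 and Rps19bp1, with smaller folds of 1.302 and 1.305, and just outside were Aqp4 and a gene model without an Ensembl identifier, both at 1.295.

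**Figure D3:**
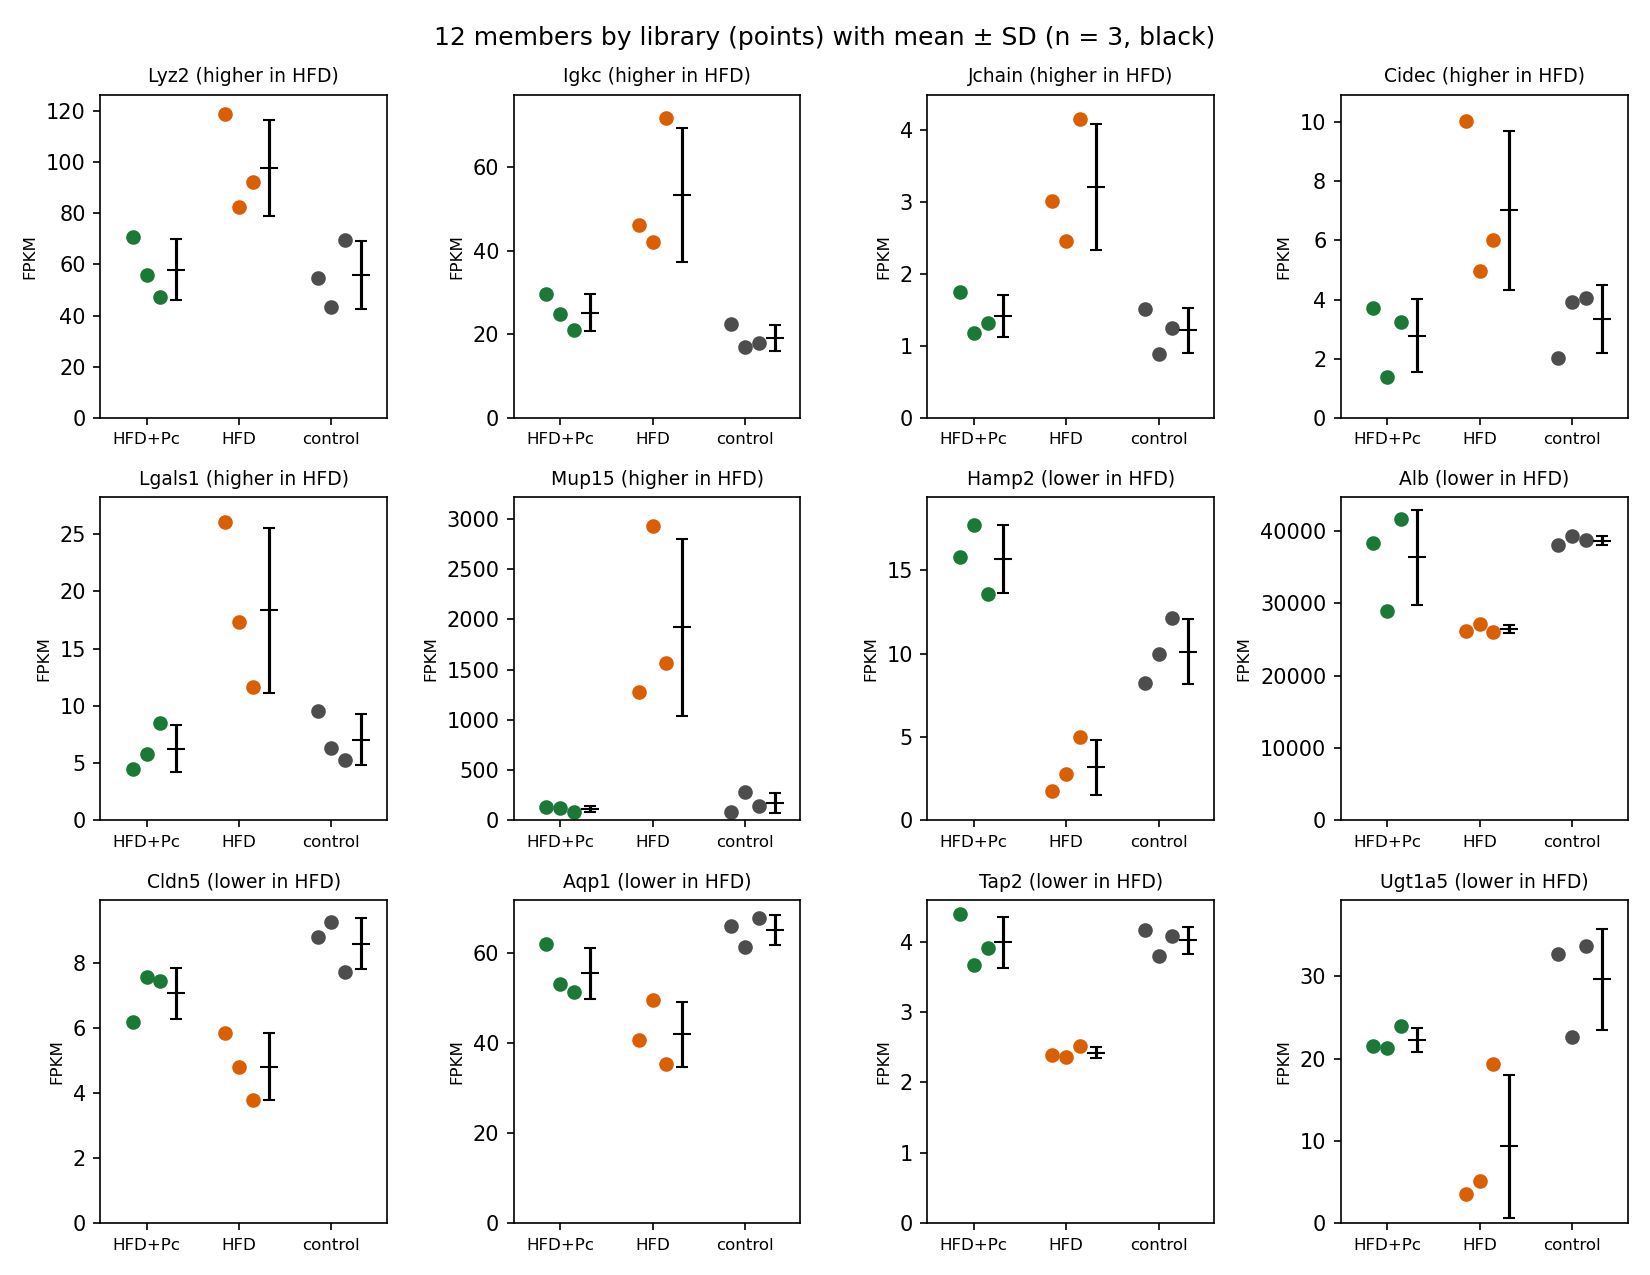
Points are FPKM in single libraries and black bars the mean ± SD (n = 3) for 6 genes higher and 6 lower in HFD livers, with HFD+Pc left, HFD middle and control right on a linear axis from 0. In Alb, Cldn5, Aqp1 and Ugt1a5 at least 1 HFD+Pc library lies close to an HFD library, while in Mup15 and Hamp2 the gap is wide.

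Several members share sequence with other genes, so their reads may be split between copies. Of 77 members that could be searched, 19 had a copy at 90% identity over at least 50% of the longest transcript, and 14 of these held less than 20% of the reads of the family. When reads of a member and its copies were summed, 15 of the 19 kept the signs of the member alone in both HFD+Pc over HFD and HFD over control, and 7 stayed past 1.3-fold in both. The 7 were Igkv10-96, Lyz2, Mup-ps12, Mup-ps13, Mup15, Pirb and Snrpf. Hamp2 turned round in both comparisons, where nearly all summed reads are those of its copy, as given above. The ratio of Gm19366 for HFD over control was 0.22, against -1.74 alone, and that of Ugt2b38 for HFD+Pc over HFD was 0.04, against -0.82 alone. Mup15 held 6.29% of the reads of itself and its copies. The ratios of Ugt1a5, 1.199 and -1.61 alone, became 0.34 and -0.04. Exons of Ugt1a5 overlap those of 8 other genes on its strand, so its 8 copies may share exons with it and need not be separate duplicates. How the authors assigned shared reads is not given in the sources used here, so the values of these 19 genes are uncertain.

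**Figure D4:**
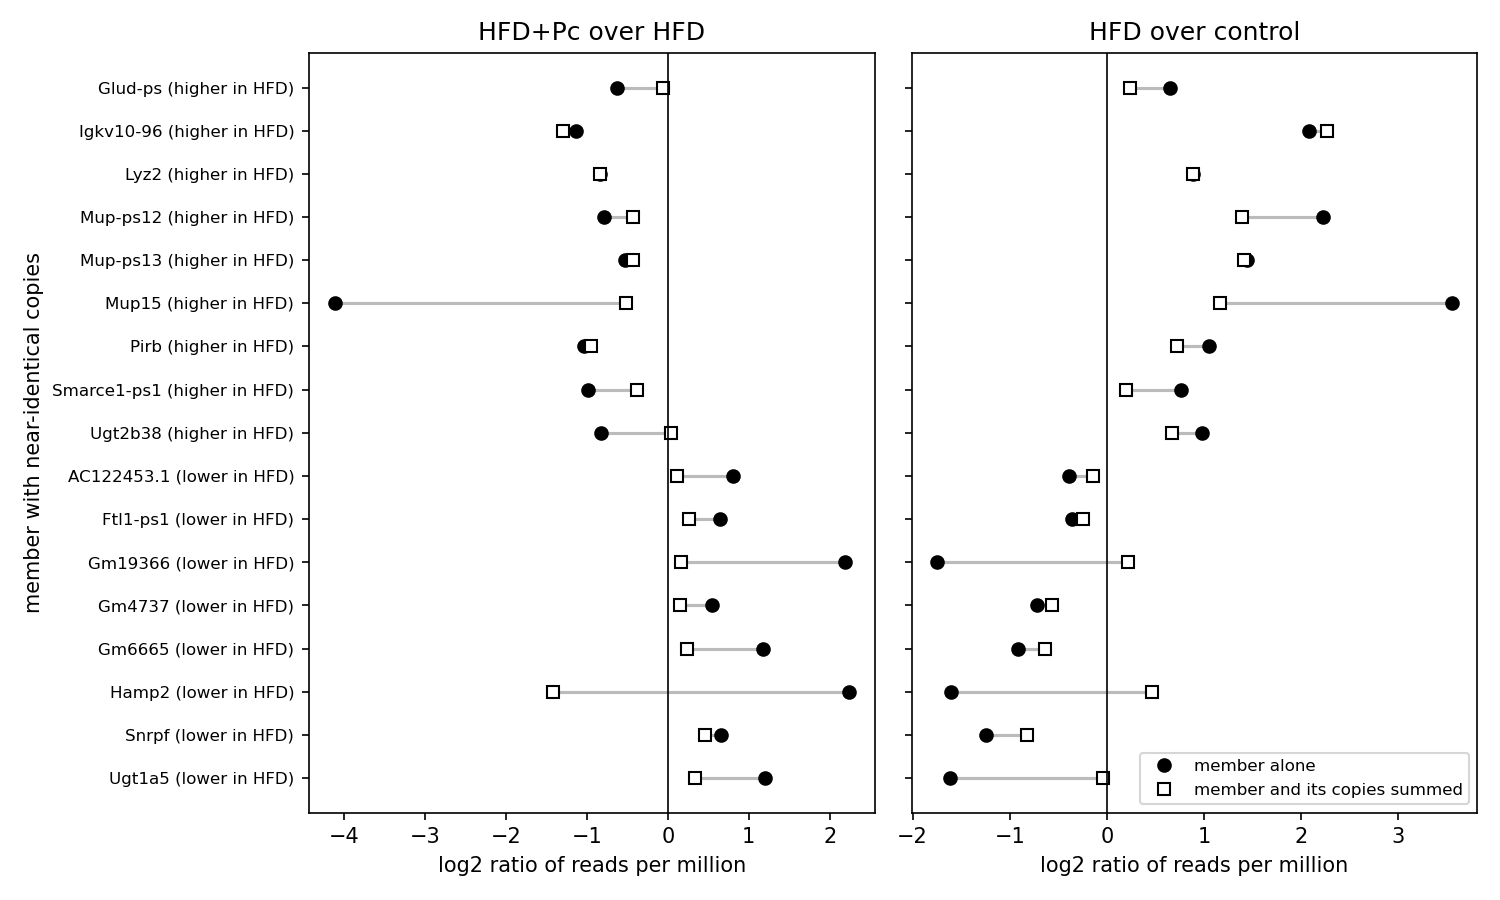
For 17 of the 19 members with near-identical copies, filled circles give the log2 ratio of reads, each scaled to its library total, for the member alone and open squares that for the member and its copies summed, for HFD+Pc over HFD (left) and HFD over control (right). The squares of Hamp2 lie across the zero line from its circles.

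The rule set no criterion on the difference between HFD+Pc and control, though it used the values of both groups. By limma on log2(FPKM + 1) with Benjamini-Hochberg adjustment over 10988 genes, 2538 genes passed, 23.1% of those tested. Of the 83 members 8 passed (9.64%), 4 of the 38 and 4 of the 45; the rule kept HFD+Pc and control values on the same side of HFD values, so the lower share is no result about the members. A p that misses the threshold does not show that HFD+Pc livers had returned to control levels. Among the 38 higher genes, Osgin1 (log2 difference 0.55 ± 0.14 (SE), adjusted p = 0.0228), Mup-ps13 (0.87 ± 0.13 (SE), adjusted p = 0.00354) and Gal3st1 (0.58 ± 0.15 (SE), adjusted p = 0.0205) were above control, and 1 gene model without an Ensembl identifier was below. Gal3st1 makes the glycolipid sulfatide. Among the 45 lower genes, Rbm3 (-0.56 ± 0.15 (SE), adjusted p = 0.0233), Rnd2, a small GTPase (-0.49 ± 0.13 (SE), adjusted p = 0.028), and Gm17251 (-0.53 ± 0.15 (SE), adjusted p = 0.0338) were below control. Rps19bp1, which binds a ribosomal protein, was above it (0.50 ± 0.08 (SE), adjusted p = 0.0048) and had 10.7, 11.9 and 11.9 FPKM in HFD+Pc livers, 5.79, 5.86 and 5.66 FPKM in HFD livers and 8.29, 8.31 and 6.89 FPKM in control livers. Mup-ps13 and Rps19bp1 passed in all 9 fits that left out 1 library, while the other 6 passed in 4 or 5 of 9, with highest adjusted p of 0.0632 (Osgin1) to 0.108 (Gm17251).

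Hamp2 was higher in HFD+Pc than in control livers by 0.59 ± 0.25 (SE) on the log2 scale (adjusted p = 0.117 by limma), in 3 of 3 libraries without overlap, and did not pass; this too is from reads of Hamp2 without its copy. For Lyz2 the difference was 0.06 ± 0.21 (SE) (adjusted p = 0.858), for Igkc 0.38 ± 0.21 (SE) (adjusted p = 0.213), for Tap2 -0.01 ± 0.08 (SE) (adjusted p = 0.939) and for Alb -0.11 ± 0.15 (SE) (adjusted p = 0.651), all by limma. Groups did not overlap between HFD+Pc and control in 5 of the 38 and 10 of the 45, against 43.4% of the 10523 rows; the rule bounds both groups on one side, so nothing is read from these shares. The HFD+Pc mean lay between the HFD and control means in 24 and 29 genes and beyond the control mean in 14 and 16. As a share of the difference between HFD and control means, HFD+Pc livers differed from HFD livers by a median of 91.0% (44.5% to 199%) in the higher and 81.8% (31.1% to 277%) in the lower genes; the rule itself sets a floor under these shares.

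**Figure D5:**
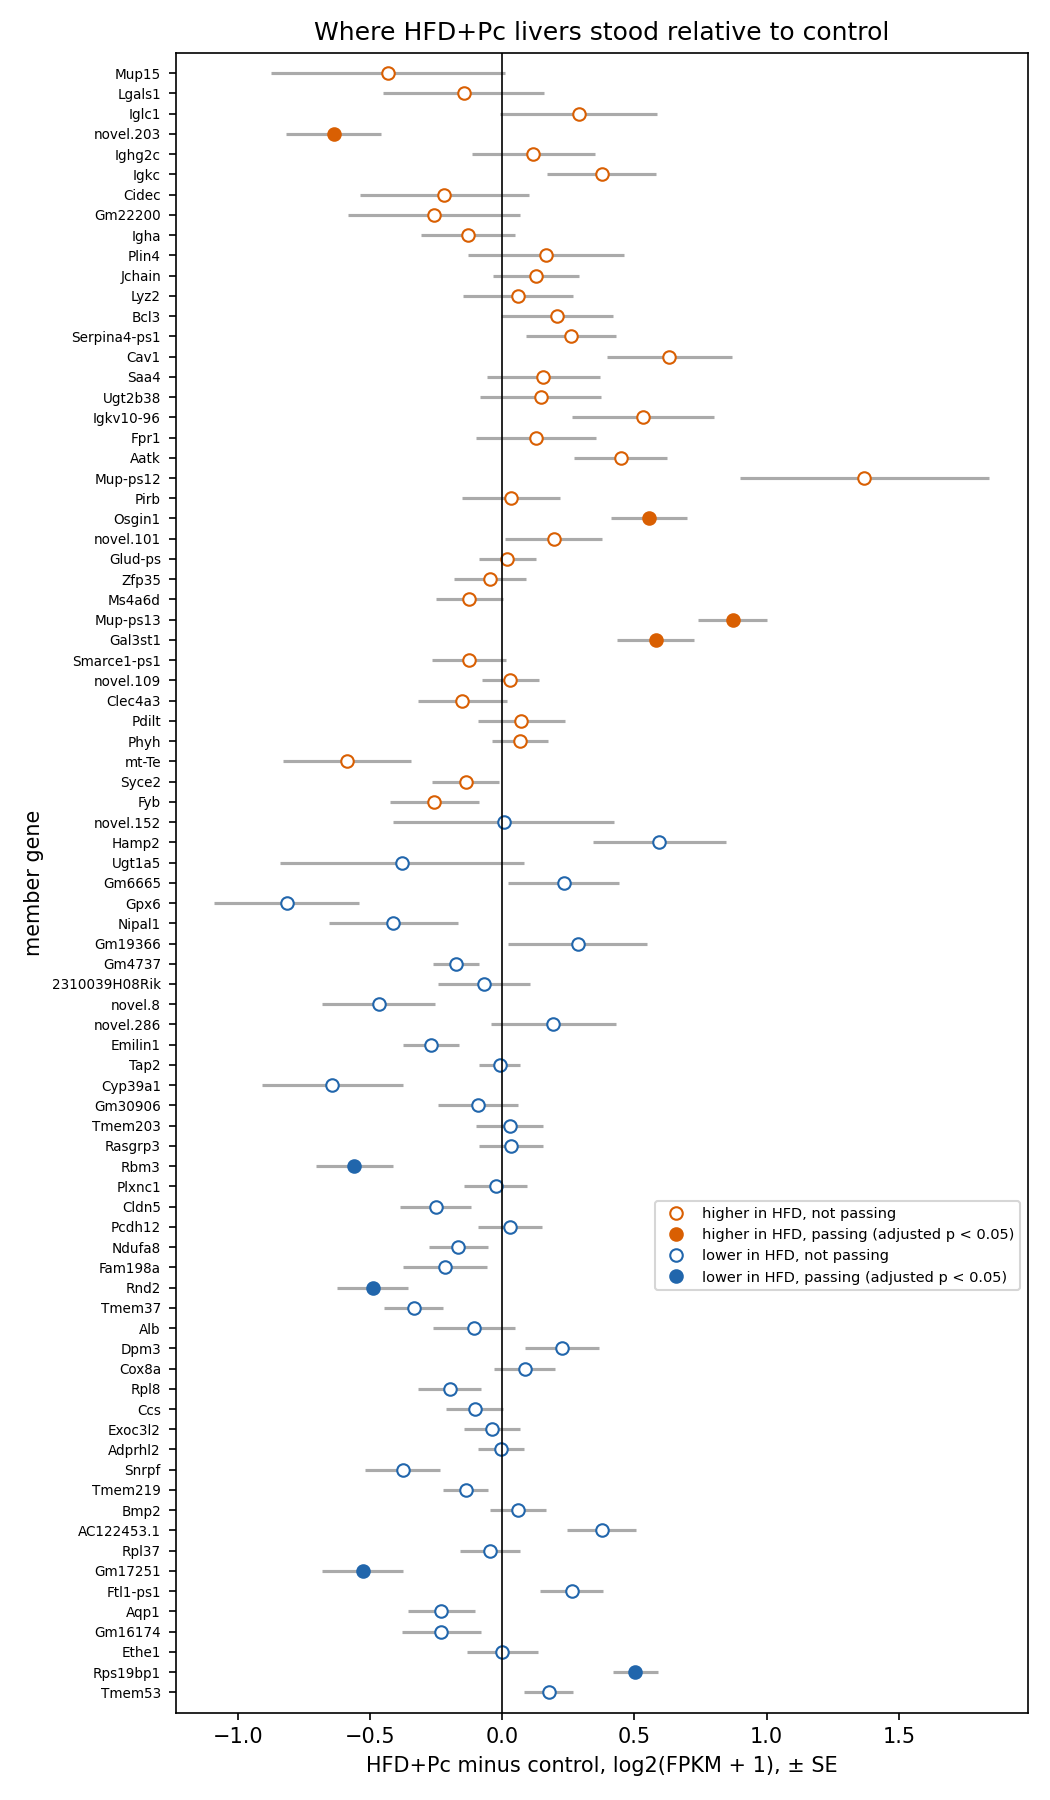
Circles give the limma difference HFD+Pc minus control in log2(FPKM + 1) for 81 of the 83 genes, bars ± SE, orange for genes higher and blue for genes lower in HFD livers; filled circles passed an adjusted p of 0.05. Most circles lie within 0.5 of zero, and 8 are filled.

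In the comparisons the rule used, limma called 9 members in HFD+Pc against HFD, 62 in HFD against control and 8 in both, counts from which nothing is read because the rule chose on those differences. The HFD library nearest to the other groups was replicate 1 in 28, replicate 2 in 29 and replicate 3 in 26 genes. The HFD mean was 1.308 to 11.02 times the control mean in the higher genes and 0.334 to 0.768 of it in the lower genes, on the FPKM + 1 scale. Other members were Aatk (a kinase), Zfp35 (a zinc finger protein), Pdilt (a testis protein of the disulfide isomerase family), the mitochondrial transfer RNA mt-Te, the pseudogenes Glud-ps and Smarce1-ps1, the small nucleolar RNA gene Gm22200 and 2 models without an Ensembl identifier on the higher side. On the lower side they were Tmem203, Tmem37, Tmem219, Fam198a, Exoc3l2, Adprhl2, Ftl1-ps1, AC122453.1, 2310039H08Rik, Gm4737, Gm6665, Gm16174, Gm19366, Gm30906 and 3 models without an Ensembl identifier.

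Features that the rule did not use, and the level, which it did use, are given beside those of all rows with a mean of at least 1 FPKM. Length here is the summed length of a gene's exons, merged over all its transcripts. Its median was 1735 bases in the higher and 1591 bases in the lower genes, against 3950 bases in all such rows. By this length 11 of 35 (31.4%) and 13 of 42 (31.0%) were shorter than 1000 bases, against 8.19%. Protein-coding genes were 22 of the 38 (57.9%) and 37 of the 45 (82.2%), against 89.8%. Pseudogenes made up 6 of 38 (15.8%) and 2 of 45 (4.44%), against 4.75%, and 3 models in each set (7.89% and 6.67%) had no Ensembl identifier, against 1.44%. An exon overlapped another gene in 4 of 35 (11.4%) of the higher and 15 of 42 (35.7%) of the lower genes, against 34.1%. Of the higher genes 65.8% and of the lower genes 46.7% averaged below 5 FPKM, against 51.5%. The rule used these means, so nothing is read from the shares below 5 FPKM. At low levels the counts were small: Gm19366 had 0 to 6 reads a library, and Iglc1 had 3 to 45.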

How the data were processed

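Liver RNA was sequenced on an Illumina instrument. Per the submitters' processing notes, alignment used HISAT2 2.0.5 and the GRCm39 build. The authors deposited FPKM values, per the file headers. The counting tool, annotation and strand setting are not given in the sources used here. Of 26278 rows above 0, values in 25356 were whole multiples of 1 read with the annotated gene length. The tolerance was 0.02, widened to at most 0.1 for high values. With lengths inferred from the values themselves for further rows, 26261 rows (99.9%) were whole, which gave the read totals. Such inferred lengths make values whole by construction, so the 99.9% is no check of the recovery. Floors in reads cover counting error only, while the SD and SE values measure the spread between libraries.

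The selection was applied to the FPKM as deposited, with a pseudocount of 1. The 10988 genes that reached 1 FPKM in 3 or more libraries were fitted with limma 3.58.1 in R 4.3.3 (eBayes with trend and robust) on log2(FPKM + 1), all 9 libraries, 1 mean per group. Replicate numbers did not pair the libraries (correlations of same-numbered deviations -0.12 to 0.05). Copies came from BLAST 2.17.0+ of GENCODE M21 transcripts, used for lengths, types and copies only. Promoter windows are RefSeq's, on GRCm38.p6. Python 3.11.15, numpy 2.4.6 and pandas 2.3.3 prepared tables.

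The members and gene lists were chosen with earlier results of these data known. Genes were named by the smaller of both log2 ratios (15 per direction with a symbol), by membership of a list and by nearness to the threshold; others, such as the genes that passed in HFD+Pc against control, the endothelial and myeloid genes outside the lists and the 4 promoters, were chosen after their values were seen. Alternatives were other pseudocounts, filters, fold thresholds and scalings, leaving out each library, a replicate block and limma-voom on the recovered reads; scaling by plain read totals and summing reads with near-identical copies were added after seeing the data. A few genes, 2 members among them, are counted but not reported here by name or drawn.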

Additional observations from a re-analysis of the deposited data

How the results depend on the processing

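The set depended on its thresholds. Genes higher in HFD numbered 59 with a pseudocount of 0.1, 73 at 1.2-fold, 22 at 1.5-fold, 13 with a minimum mean of 5 FPKM, 66 with plain read totals, 56 rescaled to TPM, and 39 to 86 with 1 library left out. Genes lower in HFD numbered 101 at 1.2-fold, 10 at 1.5-fold, 24 with a minimum mean of 5 FPKM, 23 with plain read totals, 27 rescaled to TPM, and 44 to 105 with 1 library left out. Requiring a limma call in both comparisons with opposite signs left 5 higher and 5 lower genes, of which 3 and 5 were members. Median scaling gave 41 and 45. Of the 83, 43 met the rule in each of the 9 selections without 1 library, and 11 in each of the 17 settings of the rule, the limma requirement left out. Summing reads with near-identical copies turned both directions of Hamp2 (-1.42 and 0.47), where nearly all summed reads are those of the copy. It turned 1 direction each of Gm19366 (0.22) and Ugt2b38 (0.04). The cause of these changes was not tested, beyond that a wider threshold or fewer libraries asks less of each gene.

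Over all genes, HFD+Pc against control gave 2538 calls, 1383 with no filter on low values, 1058 with the replicate block and 1396 to 2644 with 1 library left out. HFD+Pc against HFD gave 69, 3 with no filter, 3 with the replicate block, 22 with 2 groups only, 115 with plain read totals, 188 with limma-voom on recovered reads, and 5 (without HFD replicate 2) to 123 (without HFD replicate 3) with 1 library left out. HFD against control gave 1095, 209 with no filter, 232 with the replicate block, 680 with 2 groups only and 332 to 1126 with 1 library left out. Members called in HFD+Pc against control numbered 8, 2 with no filter, 5 with the replicate block and 4 to 10 with 1 library left out.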
